A study of Rattus norvegicus with 9 samples.

Results

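Expression after Nano-patrol+NIR was compared with expression after saline in rat brain tissue, using 3 RNA sequencing libraries of each group, 6 of the 9 libraries in the series. The libraries were chosen by their titles alone. Every animal had first undergone a modelling step, then received its injection 4.5 h later, and brain tissue was collected on day 3 after that. The labels do not describe the model, the strain, the age, the brain region or what NIR consists of, and samples with neither treatment nor modelling are not analysed here, nor is Nano-patrol without NIR. The remaining 3 libraries are titled rt-PA, but their columns and descriptions say uk, so which agent they received is in doubt. They entered the fit for its estimate of the spread and are otherwise given, under the name rt-PA, only as values beside the main ones. Whether libraries of a group came from different animals is not stated, so each p-value measures the spread between these libraries, which may be technical.

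The series title concerns thrombolysis, the dissolving of blood clots. In the body this work is done by plasmin, a protease that cuts fibrin and is made from plasminogen by plasminogen activators such as rt-PA, recombinant tissue plasminogen activator. Plasmin and the activators can also act on the vessel wall and its matrix, and bleeding into the brain is the feared side effect of such drugs. Injured brain tissue is known to hold fewer transcripts of neurons and more of reactive glia and of infiltrating immune cells.

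Genes are given here by their Ensembl identifiers, because the count table does not pair these with symbols. The reference table used here lists 47357 rat genes, 0 of them with an Ensembl identifier, and no symbol was assigned in any other way. The 47 gene lists drawn up for functions such as fibrinolysis, barrier junctions, glia and immune cells, and the markers meant to check the tissue label, were therefore not analysed here. No function is assigned to any gene, and 4 genes are described by identifier. They are the pair with the smallest p on each side among genes averaging at least 5 CPM whose groups do not overlap.

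In edgeR 1 gene was lower in Nano-patrol+NIR than in saline at an adjusted p under 0.05, and 0 genes were higher. At an unadjusted edgeR p under 0.05, 530 genes were higher and 377 lower, together 5.89% of those tested. Where no gene differs, a share of 0.05 is expected under this threshold, so these counts do not number changed genes. Some settings called far more at an adjusted p under 0.05. DESeq2 called 88 higher and 44 lower, limma-voom with a weight per library 573 higher and 336 lower, and edgeR without rt-PA 3 30 higher and 5 lower. Others called 0 genes, namely limma-voom, edgeR with a replicate block, and edgeR without saline 2, saline 3 or any 1 Nano-patrol+NIR library. ENSRNOG00000012067 stood at 23.1, 39.3 and 45.3 CPM (counts of the gene per 1000000 counts of the library, its total scaled by TMM) in saline 1, 2 and 3. It stood at 0.373, 0.379 and 0.139 CPM in Nano-patrol+NIR 1, 2 and 3. All 3 treated libraries thus lay near the floor, and the groups were far from overlapping. The raw counts behind these levels were 341, 510 and 637 in saline and 5, 5 and 2 in Nano-patrol+NIR. Summed over libraries these were 1488 counts against 12, or 122 times as much in saline after scaling, with an exact 95% interval of 69.4 to 236 that covers counting error only. In the edgeR fit its log2 difference was -6.89 (SE 0.54, n = 3 a group), with an edgeR quasi-likelihood adjusted p of 0.00871. It was the 1 gene of 15402 tested (0.00649%) with an adjusted p under 0.05. The rt-PA libraries held 2, 5 and 1 counts of it, so the 3 saline libraries were the ones that differed from the rest of the series. The call was lost when any 1 Nano-patrol+NIR library was left out (edgeR adjusted p 0.0725 to 0.125), without saline 2 (0.0722) or saline 3 (0.067), and when replicate number entered as a block (0.07). It was also lost with limma-voom (adjusted p 0.104) and in edgeR without both saline 1 and Nano-patrol+NIR 3 (0.0771). The log2 difference stayed between -7.11 and -6.54 in all 20 alternatives, with adjusted p of 1.56e-29 (DESeq2) to 0.125.

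The gene with the smallest p on the higher side was ENSRNOG00000007830. Its level was 19.7, 17.3 and 18.3 CPM in saline 1, 2 and 3 and 71.8, 62.2 and 57.4 CPM in Nano-patrol+NIR 1, 2 and 3. The lowest treated library was above the highest saline library by a wide margin, and each group was tight. The mean of the treated libraries was 63.8 ± 7.31 CPM, against 18.4 ± 1.22 CPM for saline (SD, n = 3 each). The log2 difference of 1.79 (SE 0.2, 95% interval 1.34 to 2.24) had an edgeR adjusted p of 0.0687, just short of the threshold. In the fit of the 6 libraries alone the edgeR adjusted p was 0.0374, and over all 20 alternatives the adjusted p ran from 1.08e-11 (DESeq2) to 0.748. The rt-PA libraries lay at 73.2, 56.1 and 45.9 CPM, so replicate 1 lay above the range of Nano-patrol+NIR and replicates 2 and 3 below it, all above saline.

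Among genes of at least 5 CPM whose groups do not overlap, ENSRNOG00000011992 was next on the higher side, at a lower level. It had rank 6 by unadjusted edgeR p over all tested genes. It measured 2.65, 3.08 and 2.63 CPM in saline and 9.18, 9.78 and 10.9 CPM in Nano-patrol+NIR, from raw counts of 37 to 40 and 123 to 157. All 3 treated libraries agreed closely and none reached the saline range. The log2 difference was 1.84 (SE 0.26, 95% interval 1.24 to 2.44), with an edgeR adjusted p of 0.164. Its rt-PA levels were 8.8, 8.23 and 5.15 CPM, between the other groups.

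On the lower side, ENSRNOG00000027271 followed ENSRNOG00000012067. Its level was 111, 84.6 and 91.8 CPM in saline 1, 2 and 3 and 45.3, 43.5 and 43.5 CPM in Nano-patrol+NIR 1, 2 and 3. The treated libraries were almost equal, at 44.1 ± 1.02 CPM (SD, n = 3), and all below the saline libraries, at 95.7 ± 13.6 CPM (SD, n = 3). The log2 difference was -1.12 (SE 0.15, 95% interval -1.45 to -0.78), with an edgeR adjusted p of 0.164. Its rt-PA libraries, at 103, 120 and 103 CPM, lay within or above the saline range, whereas those of the other 3 genes lay outside it on the same side as Nano-patrol+NIR. These 4 genes were picked by small p among genes whose groups do not overlap, so the separation shown for them follows from the choice. The 95% intervals given for their log2 differences are not adjusted for that choice or for the number of genes.

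**Figure D1:**
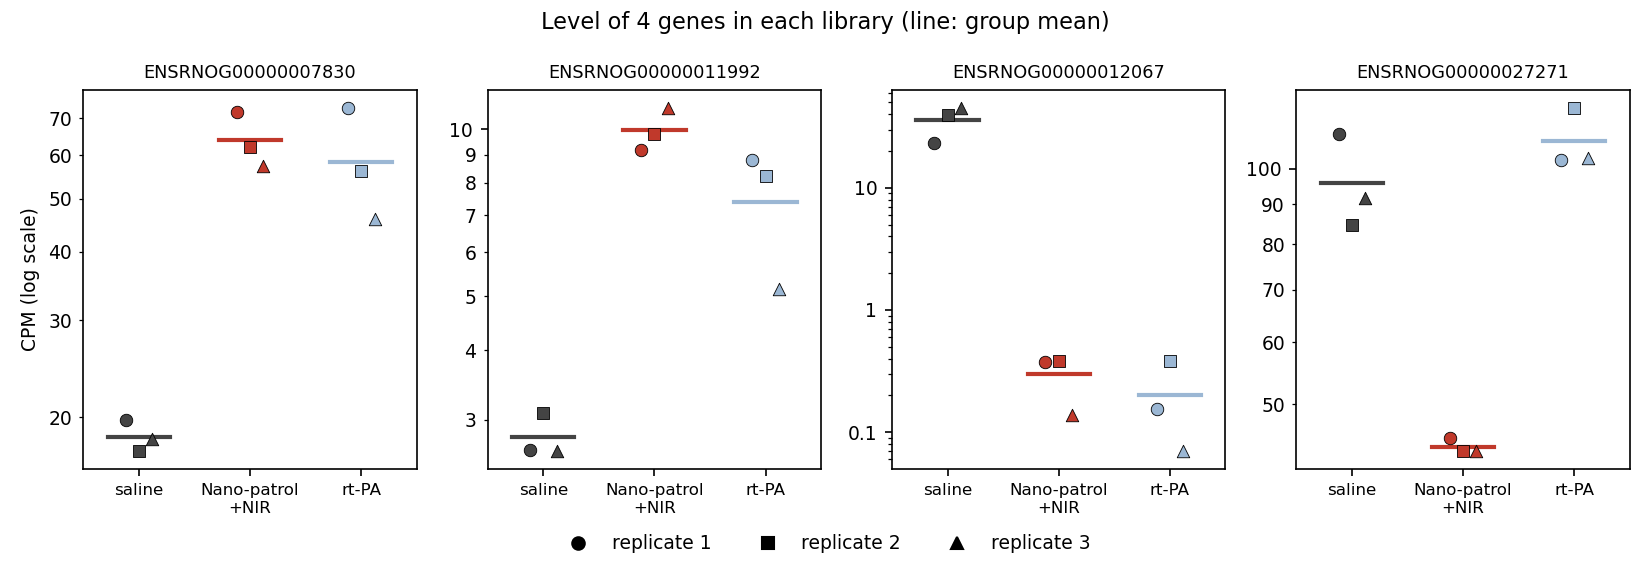
Level of 4 genes, in CPM on a log axis, in each library of the saline, Nano-patrol+NIR and rt-PA groups. Points are libraries, shaped by replicate number, and lines are group means. In each panel the 3 Nano-patrol+NIR libraries lie on one side of the 3 saline libraries, and ENSRNOG00000027271 is the gene whose rt-PA libraries stay near saline.

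The Nano-patrol+NIR libraries did not agree equally well across the genome. Among the 15402 tested genes, Nano-patrol+NIR 1 was at least 2-fold above the saline mean (log2 CPM with a prior count of 2) for 504 genes and at least 2-fold below it for 449. Nano-patrol+NIR 2 had 605 and 551 such genes, and Nano-patrol+NIR 3 had 1272 and 690. Replicate 3 thus differed most from saline, and its excess was larger on the higher side. In all, 2770 genes (18%) were this far from saline in at least 1 treated library. All 3 libraries reached 2-fold on the same side for 308 of these (11.1%), 213 above and 95 below. The count below depended on the saline libraries and the filter, being 187 without saline 2, 171 without saline 3 and 167 with every gene that had a count, beside 266, 279 and 255 above. Exactly 1 library did so for 1818 genes (65.6%), and that library was Nano-patrol+NIR 3 for 1214 of them. Libraries pointed in opposite directions at this size for 120 genes (4.33%).

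**Figure D2:**
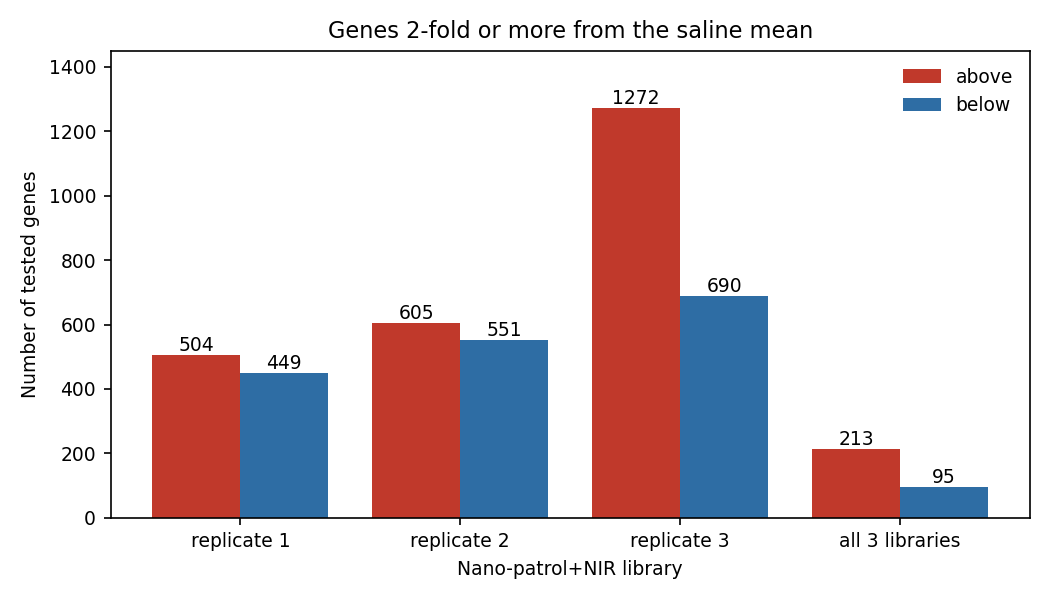
Number of tested genes at least 2-fold above or below the mean of the 3 saline libraries, in each Nano-patrol+NIR library and in all 3 at once. Nano-patrol+NIR 3 has 1272 genes above and 690 below, more than replicates 1 and 2, and 213 and 95 genes are shared by all 3 on the same side.

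The largest differences inside the groups matched those across them. Nano-patrol+NIR 1 and 2 differed by 2-fold or more for 3.84% of tested genes, and saline 2 and 3 for 2.42%. Nano-patrol+NIR 3 differed from its group mates for 13.6% and 12.7% of genes, and saline 1 from its own for 20.2% and 18.4%. Between the groups, the 4 pairs made of Nano-patrol+NIR 1 or 2 and saline 2 or 3 differed for 5.86% to 8.05% of genes. These shares were above those of the alike pairs within each group and below those that saline 1 or Nano-patrol+NIR 3 showed against their own group. The 5 pairs across groups that involve saline 1 or Nano-patrol+NIR 3 ranged from 16.6% to 19.3%. Brain region, cell content and RNA quality could not be read from identifiers without symbols, and their part in this was not tested.

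**Figure D3:**
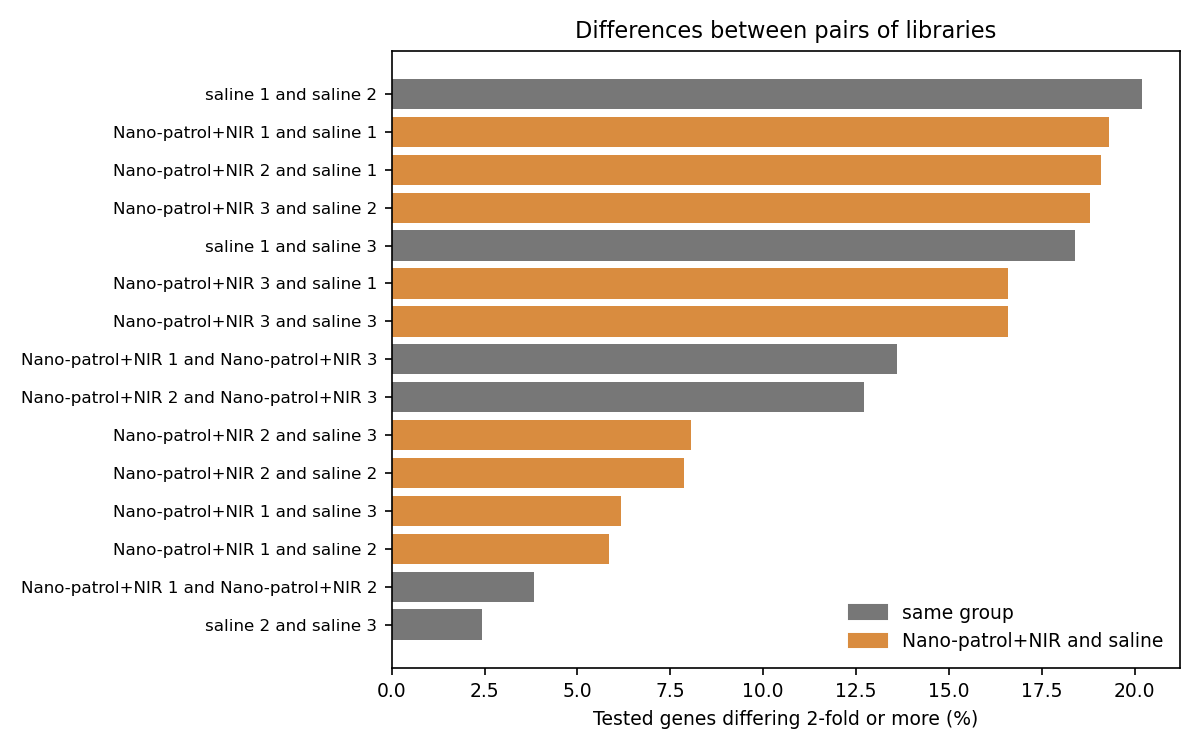
Share of tested genes that differ by 2-fold or more, in percent, for all 15 pairs of the 6 libraries. Grey bars are pairs within a group and orange bars pairs across groups. Every pair with saline 1 or Nano-patrol+NIR 3 is at 12.7% or more, and every other pair at 8.05% or less.

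All 3 Nano-patrol+NIR libraries lay above all 3 saline libraries for 1174 tested genes (7.62%) and below them for 1057 (6.86%), together 14.5%. Exact permutation of 3 against 3 libraries cannot give p below 0.1 even for full separation. Many genes can therefore separate without any treatment difference, and these shares do not count treatment effects. Most of these separations were narrow. The lowest library of the higher group exceeded the highest library of the lower group by 2-fold or more for 88 genes higher in Nano-patrol+NIR (0.571%) and 32 genes lower (0.208%). Of the 88 higher genes, 43 averaged at least 5 CPM over the 6 libraries and 25 at least 20 CPM. Of the 32 lower genes, 16 averaged at least 5 CPM and 7 at least 20 CPM. Both groups were tight, with a spread under 2-fold within each, for 42 of the 88 and 12 of the 32. The edgeR test called 0 of the 88 and 1 of the 32, ENSRNOG00000012067, while 81 and 32 of them had an unadjusted p under 0.05. DESeq2 called 44 and 21 of them. Over all tested genes, 5.89% had an unadjusted edgeR p under 0.05 and DESeq2 called 0.857%. The gap was taken from the same libraries as the tests, so these counts follow largely from the choice and are no support.

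Separation differed with the level of the gene, most plainly on the higher side. Of 870 genes averaging under 1 CPM, 9.54% were higher in all 3 treated libraries and 5.98% lower. Of 2707 genes averaging 1 to 5 CPM, the shares were 9.38% and 8.02%. Of 2247 genes averaging 100 CPM or more, the shares were 5.61% and 6.1%. All 3 libraries reached 2-fold on the same side for 4.94% of the genes under 1 CPM and for 0.846% of those at 100 CPM or more. The median standard error of the log2 difference was 0.668 and 0.237 in these 2 classes, so the low genes are also the least precisely measured.

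Tests differed in how many genes they called. On simulated data with planted changes DESeq2 made 56 false calls and edgeR 9. The simulation held no outlying libraries like saline 1, Nano-patrol+NIR 3 and rt-PA 3. It therefore cannot show how many of the calls in the real libraries are false. DESeq2 called 132 genes at an adjusted p under 0.05 (0.857%), 88 higher (0.571%) and 44 lower (0.286%). The treated libraries agreed in direction for nearly all of these, since the groups did not overlap for 87 of the 88 and for all 44. As DESeq2 chose the genes from the same libraries, that agreement is a description and no support. The differences were mostly large, with 74 of the 88 and 35 of the 44 at 2-fold or more. The farthest library was Nano-patrol+NIR 3 for 54 of the 88 higher genes, and Nano-patrol+NIR 2 for 22 and Nano-patrol+NIR 3 for 17 of the 44 lower genes. limma-voom called 0 genes, with 782 at an unadjusted p under 0.05 (5.08%), and edgeR had 907 (5.89%), of which 530 were higher (3.44%) and 377 lower (2.45%). limma-voom with a weight per library called 909 genes (5.9%), 573 higher and 336 lower. Its weights were not tested on simulated libraries that stand apart. edgeR without rt-PA 3 called 35 of 15672 (0.223%). rt-PA 3 was the library of its group farthest from the others, so the spread in that fit may be too small.

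A fit that left out the libraries standing apart was added after seeing the data, and is given as a description. Without saline 1, Nano-patrol+NIR 3 and rt-PA 3, edgeR called 501 genes (3.27% of those tested in that fit), 319 higher and 182 lower, from Nano-patrol+NIR 1 and 2 against saline 2 and 3. The difference between Nano-patrol+NIR 3 and saline 1, which took no part in that fit, could be read for 318 and 181 of them. Of the 318 higher genes, 274 (86.2%) were higher in Nano-patrol+NIR 3 than in saline 1, where 51.5% of all tested genes were. Their median log2 difference in that pair was 0.93 (quartiles 0.34 and 1.75), beside a median of 1.03 in the fit and 0.02 for all genes in the pair. Of the 181 lower genes, 127 (70.2%) were lower in Nano-patrol+NIR 3, against 48.5% of all tested genes. Their median in that pair was -0.37 (quartiles -1.1 and 0.13), beside -0.98 in the fit. The pair itself leaned upward, with 1514 tested genes 2-fold or more higher in Nano-patrol+NIR 3 than in saline 1 and 1037 lower, so the higher and lower shares are not comparable with each other. The pair is 1 library a side, so these shares have no replicate check and give no support for a treatment difference. The libraries left out were those farthest from their groups, which makes the spread in that fit too small, and the 501 calls rest on leaving out rt-PA 3 as well, since edgeR called 0 genes with it kept (731 at an unadjusted p under 0.05).

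The 4 genes described above were all among the 501. In the left-out pair ENSRNOG00000007830 differed by 1.53 on the log2 scale, beside 1.92 in the fit. ENSRNOG00000011992 differed by 1.99, beside 1.74 in the fit. ENSRNOG00000012067 differed by -6.35 and ENSRNOG00000027271 by -1.35, beside -6.77 and -0.98 in the fit. Each kept its direction in the pair, but all 9 libraries had been used to pick these genes, so this is a description.

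**Figure D4:**
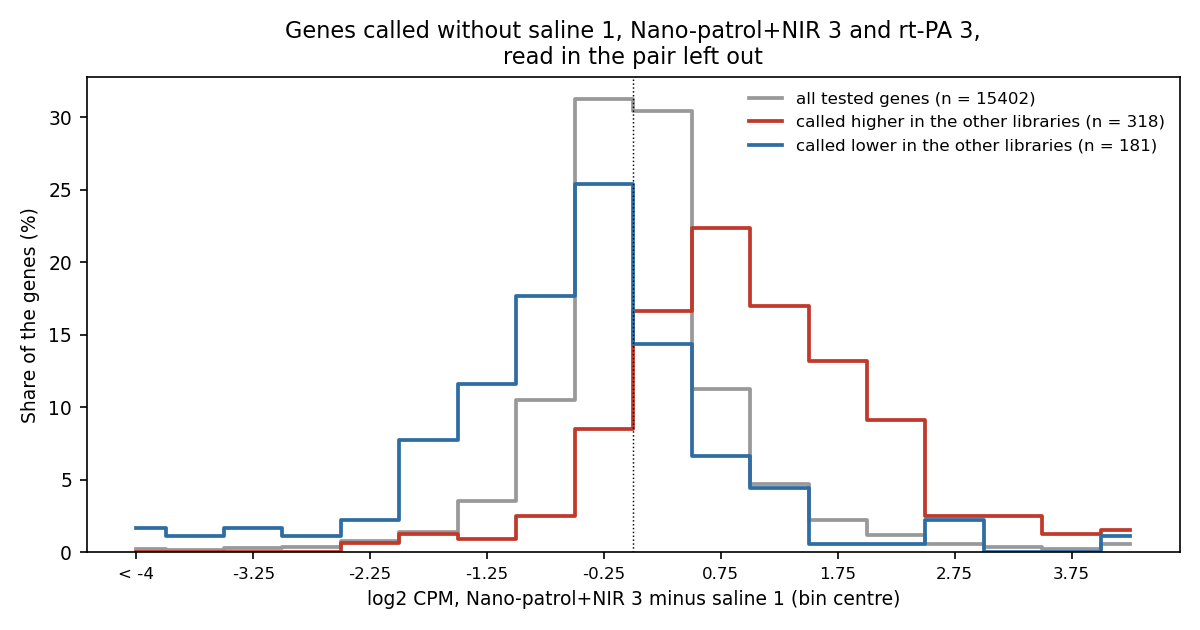
Distribution of the log2 CPM difference between Nano-patrol+NIR 3 and saline 1, in bins of 0.5, as the share of genes in percent. Lines show all tested genes, genes called higher and genes called lower in the fit without these libraries and rt-PA 3. The 318 higher genes lie mostly to the right of 0, with 86.2% above it, and the 181 lower genes mostly to the left, with 70.2% below it.

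Most genes showed no difference that this design could call, and for many the size of a difference was bounded. The 95% interval of the edgeR log2 difference stayed within 2-fold on both sides for 8585 of the 15402 tested genes (55.7%), and within 1.5-fold for 3436 (22.3%). These intervals are not adjusted for the number of genes. For the remaining genes the interval reached 2-fold or more on at least one side. The median standard error over tested genes was 0.3 on the log2 scale.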

How the data were processed

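Poly(A)-selected RNA of rat brain tissue was sequenced, per the labels' protocols. Per the submitters' processing notes, StringTie 1.3.1, HISAT2, Bowtie2 2.2.8 and fastp 0.18.0 were used, in roles not stated. How reads were counted, on which genome build and with what strand setting is likewise not given in the sources. The authors deposited whole-number read counts per Ensembl gene, not normalized, for 32623 genes. Whether reads of near-identical, overlapping or antisense genes were kept apart is therefore not known. The rt-PA columns are headed uk and were matched through the sample descriptions, and the agent given was not resolved.

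The tests were run with edgeR 4.0.16 (R 4.3.3). filterByExpr left 15402 genes, totals (13059048 to 14992109) were TMM-scaled, a joint fit of the 9 libraries had 1 mean per group (6 residual degrees of freedom), and the robust quasi-likelihood F test was adjusted by Benjamini-Hochberg. Alternatives used DESeq2 1.42.0 and limma 3.58.1, other scalings, filters, thresholds and subsets of libraries. Exact permutation of 3 against 3 libraries cannot give p below 0.1 and was not used. Each test was checked on simulated data with changes planted in Nano-patrol+NIR. There edgeR found 12% of the 2-fold and 76% of the 4-fold changes, with 9 false calls. DESeq2 found 28% and 86%, with 56 false calls. limma-voom found 10% and 72%, with 8 false calls, and with a weight per library 10% and 74%, with 9. No outlying libraries were simulated, so these figures may not hold for the real ones.

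The comparison, tests and lists were chosen with earlier results of these data known. Genes were named by rule: those past the edgeR threshold, then the smallest p among genes with at least 5 CPM and groups that do not overlap, up to 2 in each direction.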

Additional observations from a re-analysis of the deposited data

How the results depend on the processing

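The comparison of Nano-patrol+NIR with saline gave 1 called gene in edgeR, and the same number at an adjusted p under 0.01, at a threshold of 2-fold, with every gene that had a count, with genes of 1 CPM or more in 3 libraries, and with scaling by totals or by relative log expression. DESeq2 called 132, limma-voom 0 (782 at an unadjusted p under 0.05), limma-voom with a weight per library 909, and the fit of the 6 libraries alone 3. With the replicate number as a block edgeR called 0, with 741 at an unadjusted p under 0.05. Deviations of same-numbered Nano-patrol+NIR and saline libraries from their group means correlated at -0.362, 0.228 and -0.271. This cannot settle whether the libraries were paired, because saline 1 and Nano-patrol+NIR 3 stand far from their groups. The numbers were not taken as pairs in the main fit. Dropping 1 library at a time gave 0 to 35 calls, the highest without rt-PA 3. Without saline 1 and Nano-patrol+NIR 3 there were 0, and without rt-PA 3 as well 501. The 2 last fits were added after seeing the data and left out the library farthest from its group, which makes their spread too small. The spread may likewise be too small in the fit without rt-PA 3 alone. rt-PA 3 differed 2-fold or more from rt-PA 1 and 2 for 23.1% and 27.7% of genes, and those from each other for 4.52%. For these changes the cause was not tested.

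The count of genes whose groups do not overlap was 2231, and 2056 to 2752 under other scalings and filters. Leaving out a library gave 2273 to 5906, which fewer libraries raise by construction, with the highest value without saline 1. Dropping Nano-patrol+NIR 1 gave 3429, Nano-patrol+NIR 3 gave 4005, saline 1 and Nano-patrol+NIR 3 together gave 8026, and these plus rt-PA 3 gave 7941. ENSRNOG00000012067, ENSRNOG00000007830, ENSRNOG00000011992 and ENSRNOG00000027271 kept their direction in all 20 alternatives each and passed the threshold in 12, 5, 4 and 4. Gene lists were not analysed under any setting. The fold of ENSRNOG00000012067 rests on 2 to 5 counts in each Nano-patrol+NIR library, so depth limits it.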
